A study of Mus musculus with 12 samples.

Results

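The aminoacyl-tRNA synthetase genes are the 38 genes, of 53351 in the deposited table, whose symbol is that of an enzyme that charges a tRNA with its amino acid. They were taken by symbol alone, with no measured value used. By textbook assignment 21 encode cytosolic enzymes and 17, all with the suffix 2, encode mitochondrial ones. Of the cytosolic enzymes 8 belong to the multisynthetase complex (Dars, Eprs, Iars, Kars, Lars, Mars, Qars and Rars) and 13 work outside it. Tarsl2, a second cytosolic threonyl-tRNA synthetase, is counted with the latter, and Kars and Gars also serve mitochondria. All 38 were among the 20240 genes tested.

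The libraries came from wild-type mouse neural progenitor cells of the cortex, dissected at embryonic day 13.5 and grown overnight. Cells were exposed for 2 h to DMSO, the solvent control, or to Torin1 at 250 nM, an inhibitor of the kinase mTOR. Every group then received cycloheximide, which holds ribosomes on their mRNAs. Part of each lysate (10%) was kept as total mRNA, and the remainder was run on a sucrose gradient, whose fractions with more than 3 ribosomes per mRNA made the polysome mRNA. This gives 4 groups of 3 biological replicates, namely total DMSO, total Torin1, polysome DMSO and polysome Torin1, in 12 libraries. The p-values below measure the spread among these replicates.

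Each synthetase joins 1 amino acid to its tRNAs at the cost of ATP, and the charged tRNA then enters the ribosome. Eprs is the exception among the cytosolic enzymes, since a single chain charges both glutamate and proline tRNAs. Mitochondria translate their own mRNAs with a separate set of enzymes encoded in the nucleus. The kinase mTOR controls translation, most strongly of mRNAs that begin with a pyrimidine tract, and it also raises the level of ATF4, a transcription factor whose known targets include many cytosolic synthetase genes. In the cell, charged tRNA is also read as a signal of amino acid supply, and Lars has a described role as a leucine sensor upstream of mTOR.

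Promoter windows are shown because ATF4 is a known route from mTOR to these genes. RefSeq windows of 250 bases before to 50 bases after the annotated start (GRCm38.p6) were found by symbol for 28 of the 38 genes, 14 cytosolic and 14 mitochondrial. The composite element of ATF4 and its C/EBP partners was searched as TGATGNAA on both strands, and it was present in the windows of Iars, Aars, Gars, Tars and Yars. That is 5 of 14 cytosolic and 0 of 14 mitochondrial genes, against 3.97% of all 32851 windows. The sites of Iars, Gars, Tars and Yars are given 5′ to 3′ on the gene's strand, 30 bases each, with the match in capitals.
Iars, chr13:49682126-49682155, plus strand: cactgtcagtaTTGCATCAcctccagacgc
Gars, chr6:55037960-55037989, plus strand: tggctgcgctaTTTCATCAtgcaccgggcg
Tars, chr15:11399655-11399684, minus strand: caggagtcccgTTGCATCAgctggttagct
Yars, chr4:129189895-129189924, plus strand: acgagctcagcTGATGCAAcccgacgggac
The Iars, Gars and Tars matches lie on the strand opposite to the gene, so they appear as the reverse complement here. In Yars the match reads along the gene.

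A second letter string, the E-box CACGTG, which reads the same on both strands and is bound by factors such as MYC and TFEB, was in the windows of Iars, Aars, Farsb, Tars and Ears2. That is 4 of 14 cytosolic and 1 of 14 mitochondrial genes (7.14% of the latter), against 7.15% of all windows. Ears2, the mitochondrial glutamyl-tRNA synthetase, is the only mitochondrial enzyme with a match. It was picked for display because it was among the genes that changed most in polysome mRNA after Torin1. Its change in total mRNA did not pass (limma, adjusted p = 0.147).
Ears2, chr7:122067047-122067076, minus strand: gcgaaggagccCACGTGtgtgtttctagtc
At the annotated start itself, a C followed by 4 pyrimidines, the letters that open a terminal pyrimidine tract, was found in 1 of 28 synthetase windows, that of Wars2. The same letters open 2.51% of all windows and 18.4% of the 76 windows of cytosolic ribosomal protein genes. Only the annotated start was read, so windows without these letters are not shown to lack a tract. A match is a description of letters and not a measured binding site.

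Values are given in ppm, a parts-per-million share of the library after scaling. A fold is a difference on the log2(value + 1) scale with its standard error. The value used there is scaled to the mean column total and is not the ppm value. A gene is said to rise or fall where limma's moderated test gave a Benjamini-Hochberg adjusted p under 0.05 over all genes tested. The depth in reads is unknown, so no counting error is given. Column totals of the deposited table ran from 14341674 to 19201406. Progenitor markers summed to between 3421 and 7052 ppm and neuronal markers to between 2184 and 2563 ppm, so both cell types were present. Blood markers (Hba-a1, Hbb-bs and Hbb-bt) summed to between 1021 and 2260 ppm, and interneuron or ventral markers to between 126 and 149 ppm. The summed collagen genes of meningeal cells lay between 15.2 and 21.0 ppm in total DMSO, between 31.4 and 40.1 in total Torin1, between 13.5 and 16.1 in polysome DMSO and between 24.0 and 28.5 in polysome Torin1, and no marker was at 0. The 3 markers of intermediate progenitors all rose in both fractions, their sum going from 121 to 126 ppm in total DMSO to 183 to 190 in total Torin1, and from 109 to 111 ppm in polysome DMSO to 151 to 180 in polysome Torin1. The progenitor markers numbered 9, of which 3 rose in total mRNA and 4 rose in the polysome fraction. For comparison with these marker counts, 3.32% of all genes tested rose in total mRNA and 4.4% rose in the polysome fraction. With only genes averaging at least 8 ppm these shares were 4.43% and 6.3%. In these bulk samples fewer cells of a type and less RNA per cell cannot be told apart, and the part of these cells in the results below was not tested.

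In total mRNA few synthetase genes changed after Torin1. Of 38 genes 1 rose and 2 fell, and the median fold was -0.00. Among all genes tested 3.32% rose and 4.16% fell (672 and 841 genes, or 784 and 588 with upper-quartile scaling). Of the 9350 genes with a mean of at least 8 ppm, the level that 35 of the 38 members reach, 4.43% rose and 7.48% fell. The gene that rose was Qars, the glutaminyl-tRNA synthetase of the multisynthetase complex, and those that fell were Yars, the cytosolic tyrosyl enzyme, and Mars2, the mitochondrial methionyl enzyme. No member of the mitochondrial set rose.

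Qars (chr9:108508005-108515941) stood at 79.7, 97.7 and 73.3 ppm in total DMSO and at 103, 104 and 118 ppm in total Torin1. Every Torin1 library was above every DMSO library, although the second DMSO library came close. The fold was 0.38 ± 0.10 (limma, adjusted p = 0.0447). Yars (chr4:129189734-129219240) went from 134, 130 and 129 ppm to 111, 120 and 105 ppm, again with no overlap, and fell by 0.23 ± 0.06 (limma, adjusted p = 0.0402). Mars2 (chr1:55237177-55240058) measured 5.91, 6.06 and 6.64 ppm in DMSO and 4.30, 4.37 and 4.26 ppm in Torin1. It fell by 0.52 ± 0.14 (limma, adjusted p = 0.0436), and its groups stood apart. All of these calls lie near the threshold. The call on Qars was lost without each total library except DMSO replicate 2 (highest adjusted p = 0.164), that on Yars without each except Torin1 replicate 2 (highest adjusted p = 0.164) and that on Mars2 without each of the 6 (highest adjusted p = 0.156).

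In polysome mRNA the question was which transcripts changed their share of the heavy ribosome fractions under mTOR inhibition. Here 7 synthetase genes rose and 0 fell, while 4.4% of all genes tested rose and 6.27% fell. Among genes with a mean of at least 8 ppm 6.3% rose and 11.7% fell. The median fold of the 38 was -0.01, with 19 folds above 0 and 19 below. The genes that rose were Eprs, Lars and Qars of the multisynthetase complex, Vars and Tarsl2 among the other cytosolic enzymes, and Ears2 and Tars2 of mitochondria. Without polysome DMSO replicate 1 the number that rose was 3, without DMSO replicate 3 it was 2, and without Torin1 replicate 2 it was 3. With the 6 polysome libraries fitted alone 1 rose, Ears2. Scaling by column total alone shifts the median of all genes by 0.23 here. It gives 17 synthetase genes that rose and 0 that fell, while the counts over all genes change from 891 and 1270 to 2911 and 329 (1047 and 971 with upper-quartile scaling).

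**Figure D1:**
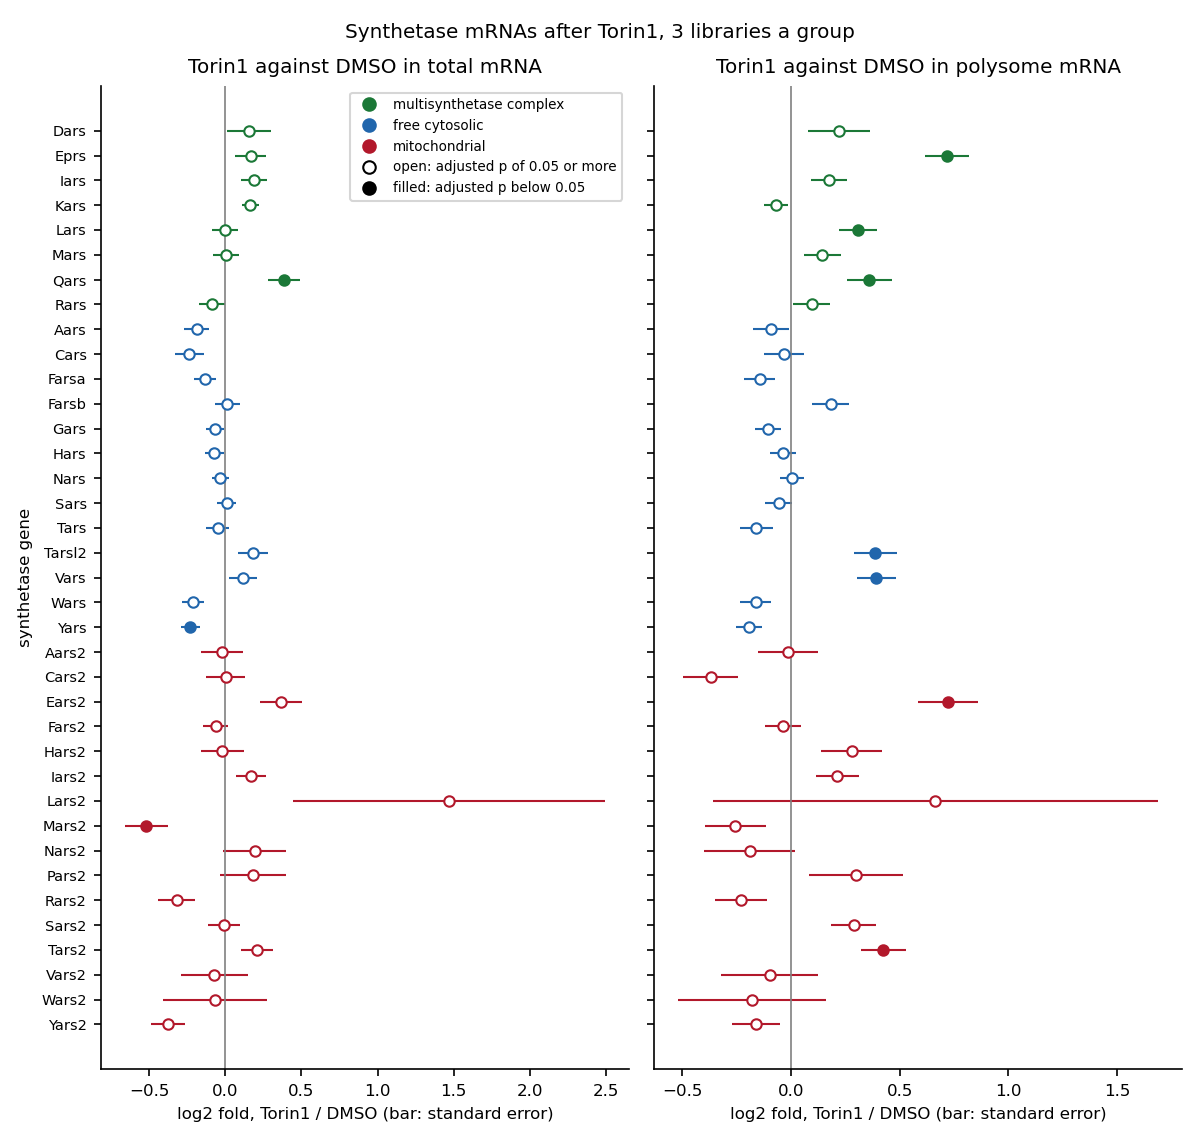
Log2 fold of Torin1 against DMSO (x axis, on the log2(value + 1) scale) for the synthetase genes, 1 of the 38 not drawn (y axis), in total mRNA (left) and polysome mRNA (right), with bars for the standard error, colours for the class and filled points for an adjusted p under 0.05. In polysome mRNA the 7 filled points all lie to the right of 0, with Eprs and Ears2 farthest at 0.72, and in total mRNA 3 points are filled.

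The largest changes were in the genes of the enzymes for glutamate. Eprs (chr1:185361417-185428360), the glutamyl-prolyl enzyme of the cytosol, measured 22.0, 24.1 and 19.6 ppm in polysome DMSO and 30.3, 39.2 and 39.0 ppm in polysome Torin1. No libraries of the groups overlapped, and the first Torin1 library was the lowest of its group. Eprs rose by 0.72 ± 0.10 (limma, adjusted p = 0.000999), and the call held without each of the 6 libraries in turn. Fitting the 6 polysome libraries alone left it at an adjusted p = 0.0611. In total mRNA Eprs was at 57.6, 58.5 and 58.2 ppm in DMSO and at 66.0, 62.9 and 66.8 ppm in Torin1, a fold of 0.17 ± 0.10 that did not pass (limma, adjusted p = 0.394).

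Ears2 (chr7:122034162-122067094), the mitochondrial glutamyl enzyme, measured 7.77, 6.24 and 7.28 ppm in polysome DMSO and 12.7, 11.8 and 10.7 ppm in polysome Torin1. These groups were also apart. Ears2 rose by 0.72 ± 0.14 (limma, adjusted p = 0.00624), a call that held under all 14 alternative settings run for this comparison. In total mRNA it was at 6.31, 8.59 and 6.86 ppm in DMSO and at 9.76, 8.28 and 9.90 ppm in Torin1. The highest DMSO library there exceeded the lowest Torin1 library, and the fold of 0.37 ± 0.14 did not pass (limma, adjusted p = 0.147).

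Of the 8 complex genes 3 rose in polysome mRNA, 7 had a fold above 0 and the median was 0.20. Over all genes tested 4.4% rose and 9780 of 20240 had a fold above 0. With at least 8 ppm 6.3% rose and 3790 of 9350 had a fold above 0. Lars, the leucyl enzyme, measured 27.8, 27.7 and 25.2 ppm in polysome DMSO and 29.1, 36.3 and 35.0 ppm in polysome Torin1. Its first Torin1 library was just above the DMSO range, and Lars rose by 0.31 ± 0.09 (limma, adjusted p = 0.0416). Qars measured 75.5, 82.2 and 78.9 ppm against 111, 98.9 and 94.0 ppm after Torin1, with no overlap. It rose by 0.36 ± 0.10 (limma, adjusted p = 0.0462), much as in total mRNA. Kars, the lysyl enzyme, was the complex gene with a fold below 0, at -0.07 ± 0.06 (limma, adjusted p = 0.505). The calls on Lars and Qars were fragile. That on Lars was lost without each polysome library except Torin1 replicate 1 (highest adjusted p = 0.149), and that on Qars without each except Torin1 replicate 3 (highest adjusted p = 0.142).

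Among the 13 cytosolic enzymes outside the complex 2 rose in polysome mRNA, beside 4.4% of all genes tested (6.3% with at least 8 ppm). The median fold of the 13 was -0.06. Vars (chr17:35000907-35016329), the valyl enzyme, measured 36.9, 33.6 and 32.8 ppm in polysome DMSO and 51.1, 46.2 and 39.1 ppm in polysome Torin1. The Torin1 libraries spread widely but stayed above the DMSO range, and Vars rose by 0.39 ± 0.09 (limma, adjusted p = 0.0158). Tarsl2 (chr7:65644898-65692093) went from 9.17, 10.5 and 10.1 ppm to 11.4, 14.5 and 13.2 ppm with no overlap and rose by 0.39 ± 0.10 (limma, adjusted p = 0.0279). The other threonyl gene of the cytosol, Tars, had a fold of -0.16 ± 0.08 (limma, adjusted p = 0.22). The call on Vars was lost without DMSO replicate 3 (adjusted p = 0.0677) and without Torin1 replicate 2 (adjusted p = 0.05). That on Tarsl2 was lost without DMSO replicates 1 and 3 and without Torin1 replicate 2 (highest adjusted p = 0.106).

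Nars, the asparaginyl enzyme, was the cytosolic gene nearest to no change. It measured 105, 105 and 102 ppm in polysome DMSO and 99.8, 104 and 109 ppm in polysome Torin1, and 91.2, 93.0 and 92.3 ppm in total DMSO against 93.8, 87.9 and 89.0 ppm in total Torin1. The groups overlapped in both fractions. The folds were 0.01 ± 0.05 in polysome and -0.03 ± 0.05 in total mRNA, with 95% intervals of -0.11 to 0.12 and -0.15 to 0.09. Sars, the seryl enzyme, had folds of -0.06 ± 0.06 and 0.01 ± 0.06.

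Of the 17 mitochondrial enzymes 2 rose in polysome mRNA, beside 4.4% of all genes tested (6.3% with at least 8 ppm), and the median fold was -0.02. Besides Ears2 this was Tars2 (chr3:95739974-95756365), the mitochondrial threonyl enzyme, at 19.3, 22.8 and 21.5 ppm in polysome DMSO and 31.9, 27.4 and 26.3 ppm in polysome Torin1. The groups did not overlap, and Tars2 rose by 0.42 ± 0.10 (limma, adjusted p = 0.0232). This call was lost without DMSO replicates 1 and 3 and without Torin1 replicate 1 (highest adjusted p = 0.0934). Sars2, the mitochondrial seryl enzyme, measured 12.04, 14.7 and 15.1 ppm in polysome DMSO and 16.7, 18.2 and 16.0 ppm in polysome Torin1. Its groups were also apart, but the fold of 0.29 ± 0.10 did not pass (limma, adjusted p = 0.106).

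Other mitochondrial enzymes had values in the opposite direction, none of which passed in polysome mRNA. Cars2, the cysteinyl enzyme, measured 22.4, 22.9 and 22.8 ppm in polysome DMSO and 16.5, 21.1 and 15.6 ppm in polysome Torin1. The DMSO libraries were tightly grouped above all Torin1 libraries, and the fold was -0.37 ± 0.13 (limma, adjusted p = 0.0881). Without polysome Torin1 replicate 2, the highest of its group, Cars2 fell by 0.50 (limma, adjusted p = 0.0257). Rars2, the arginyl enzyme, measured 35.9, 35.1 and 36.3 ppm against 25.3, 33.5 and 33.5 ppm after Torin1, and its fold was -0.23 ± 0.12 (limma, adjusted p = 0.27). The Rars2 groups did not overlap, but without the first Torin1 library the fold was -0.09.

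Yars2, the mitochondrial tyrosyl enzyme, stood out more in total mRNA, at 19.9, 20.2 and 21.9 ppm in DMSO and 15.9, 14.7 and 17.0 ppm in Torin1. With no overlap, the fold of -0.38 ± 0.11 came close to the threshold (limma, adjusted p = 0.0626). In polysome mRNA Yars2 measured 23.0, 26.1 and 24.0 ppm against 24.3, 23.4 and 18.1 ppm, and there the groups overlapped. Fars2, the phenylalanyl enzyme, was the mitochondrial gene nearest to no change among those with at least 8 ppm that passed in any comparison. It measured 28.7, 29.2 and 30.2 ppm in polysome DMSO and 31.2, 29.0 and 25.9 ppm in polysome Torin1. Its folds were -0.04 ± 0.08 in polysome and -0.06 ± 0.08 in total mRNA, with overlapping groups in both. Aars2, with a mean of 7.03 ppm, had folds of -0.02 ± 0.14 in both fractions.

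**Figure D2:**
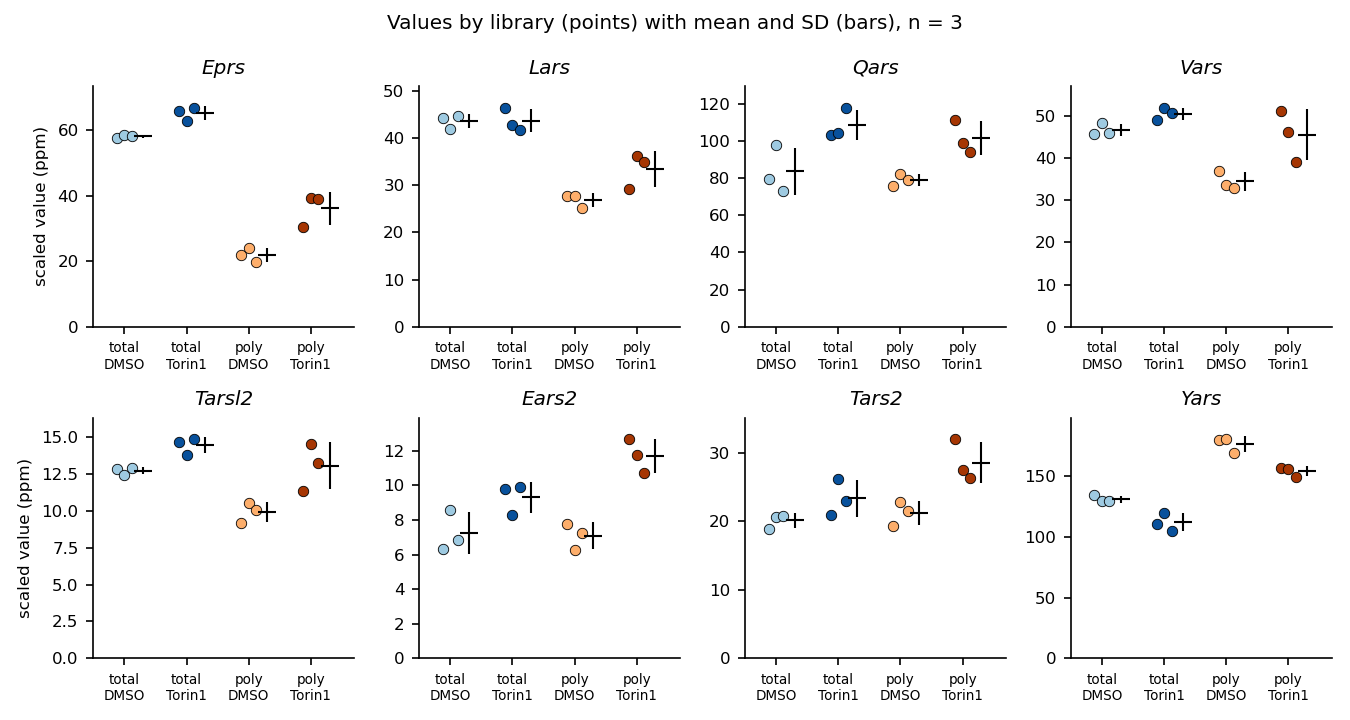
Scaled values in ppm (y axis) of the 7 genes that rose in polysome mRNA after Torin1 and of Yars, by group (x axis), with 1 point per library and the mean and SD over 3 libraries as a cross. Eprs lies at 19.6 to 24.1 ppm in polysome DMSO and 30.3 to 39.2 ppm in polysome Torin1, below its total mRNA values of 57.6 to 66.8 ppm.

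Whether Torin1 acted differently on polysome than on total mRNA was tested by the interaction of treatment and fraction. No synthetase gene passed, in either direction. Among all genes tested 0.0148% had a higher and 0.692% a lower polysome change, or 3 and 140 genes, which become 32 and 119 with the column total alone. Among genes with at least 8 ppm the shares were 0.0107% and 1.4%. At an unadjusted p under 0.05 there were 4 of the 38 members, Eprs, Lars, Vars and Kars, beside 1155 of all 20240 genes and 589 of the 9350 with at least 8 ppm. Eprs had the largest of these differences, 0.55 ± 0.14 with a 95% interval of 0.24 to 0.86, and its adjusted p was 0.221 (limma). Without polysome Torin1 replicate 1, the low library of its group, the difference was 0.67 and passed (limma, adjusted p = 0.0186). This was the only 1 of 20 alternative settings in which Eprs passed (limma, highest adjusted p = 0.483). Ears2 had 0.36 ± 0.20, with an interval of -0.07 to 0.78 (limma, adjusted p = 0.96). The calls in polysome mRNA alone are therefore not shown to differ from the total mRNA changes of the same genes.

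Polysome against total mRNA in DMSO cells describes which transcripts were enriched in the heavy fractions without Torin1, though after cycloheximide. In DMSO cells 15 synthetase genes were higher in polysome mRNA and 8 were lower. The share of all genes tested was 21.8% higher and 19.3% lower, and of genes with at least 8 ppm it was 40.9% and 25.6%. The members' median was 0.18, against 0.15 over genes with at least 8 ppm. Polysome and total libraries are relative measures, so these differences are set against the typical gene and not against a constant amount of mRNA. Scaled by column total alone, the median of all genes moves by -0.36 in this comparison, and 1 synthetase gene is higher and 16 are lower, while over all genes the counts change from 4416 higher and 3915 lower to 1853 and 6708.

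The lowest polysome shares in DMSO cells belonged to genes of all classes. Mars2, at 2.34, 2.17 and 2.06 ppm in polysome against 5.91, 6.06 and 6.64 ppm in total DMSO, was lower by a log2 difference of -1.48 ± 0.14 (limma, adjusted p = 5.76e-06). Eprs, with 22.0, 24.1 and 19.6 against 57.6, 58.5 and 58.2 ppm, was lower by a difference of -1.41 ± 0.10 (limma, adjusted p = 1.4e-06). In both genes the fractions lay far apart. Lars had a difference of -0.70 ± 0.09, Vars -0.44 ± 0.09, Iars, the isoleucyl enzyme, -0.41 ± 0.08, Tarsl2 -0.36 ± 0.10, Aars, the alanyl enzyme, -0.29 ± 0.08 and Iars2 -0.26 ± 0.10. Eprs, Lars, Vars, Iars and Mars2 kept this direction and passed under every alternative run, column total alone included. The call on Iars2 was lost without each of these libraries except total DMSO replicate 3 (highest adjusted p = 0.176), that on Aars without total DMSO replicate 2 and without polysome DMSO replicate 3, and that on Tarsl2 without polysome DMSO replicate 1. Of the complex genes Eprs, Lars and Iars were lower and Rars and Kars higher, but with the column total alone Rars (-0.045) and Kars (-0.13) turned sign and did not pass.

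High polysome shares were found among mitochondrial and cytosolic enzymes. Nars2 measured 15.2, 11.005 and 9.37 ppm in polysome DMSO and 6.47, 7.18 and 7.66 ppm in total DMSO. Its groups did not overlap, and the difference was 0.71 ± 0.21 (limma, adjusted p = 0.0166). Without total DMSO replicate 1 or polysome DMSO replicate 1 the call on Nars2 was lost (highest adjusted p = 0.0763), as it was with the column total alone. Fars2, with total DMSO values of 17.8, 19.8 and 18.0 ppm, had 0.66 ± 0.08 (limma, adjusted p = 4.1e-05). Of the 13 cytosolic enzymes outside the complex 8 were higher, beside 21.8% of all genes tested (40.9% with at least 8 ppm). Hars, the histidyl enzyme, led them at 0.52 ± 0.06. The genes of the cytosolic phenylalanyl enzyme, which is built from the chains of Farsa and Farsb, had nearly the same difference, 0.43 ± 0.07 and 0.46 ± 0.09. With the column total alone the calls on Fars2, Hars, Farsa and Farsb were lost as well (limma, adjusted p = 0.0981, 0.367, 0.889 and 0.634).

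In Torin1 cells 15 synthetase genes were again higher and 4 were lower, where 20.7% and 19.1% of all genes tested were, and 39.5% and 25.6% of genes with at least 8 ppm. The 4 lower genes were Mars2 at -1.22 ± 0.14, Eprs at -0.86 ± 0.10, Iars at -0.42 ± 0.08 and Lars at -0.39 ± 0.09. Vars, at -0.16 ± 0.09, Tarsl2, at -0.15 ± 0.10, and Aars, at -0.19 ± 0.08, no longer passed. Among the higher genes Sars2, at 0.50 ± 0.10, Yars2, at 0.45 ± 0.11, Tars2, at 0.29 ± 0.10, and Cars, the cytosolic cysteinyl enzyme, at 0.28 ± 0.09, passed in Torin1 cells and not in DMSO cells. The call on Tars2 was lost without total Torin1 replicates 1 and 3 and without polysome Torin1 replicates 1 and 2 (highest adjusted p = 0.162). That on Cars, whose groups overlapped, was lost without total Torin1 replicates 2 and 3 and without polysome Torin1 replicate 1 (highest adjusted p = 0.111). Kars went the other way, from 0.28 ± 0.06 to 0.04 ± 0.06, and Cars2 from 0.49 ± 0.13 to 0.12 ± 0.13. None of these shifts passed as an interaction.

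**Figure D3:**
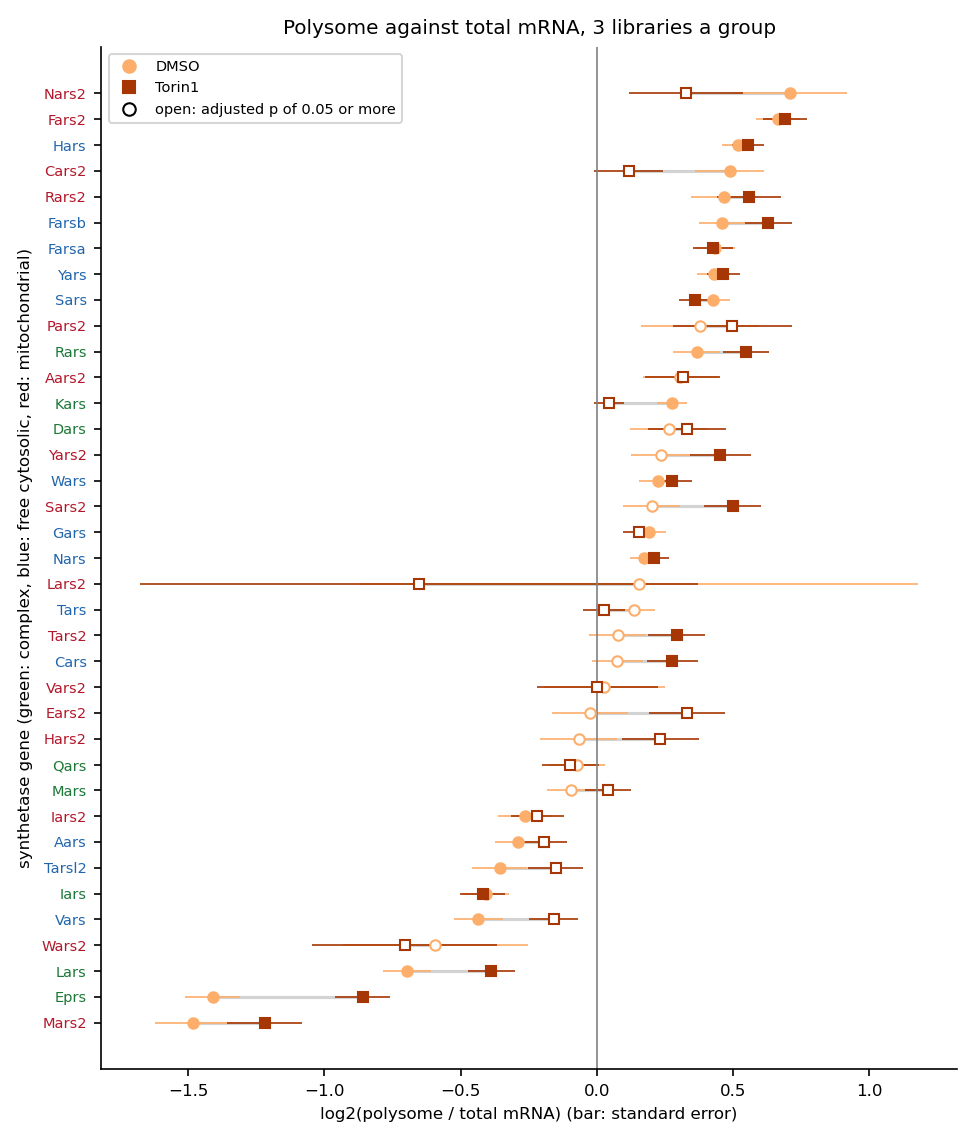
Log2 difference of polysome against total mRNA (x axis) for the synthetase genes, 1 of the 38 not drawn (y axis, ordered by the DMSO value, names coloured by class), with circles for DMSO, squares for Torin1 and bars for the standard error. Eprs and Mars2 lie lowest, at -1.41 and -1.48 in DMSO, and the Eprs value in Torin1 is -0.86.

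Lars2, the mitochondrial leucyl enzyme (chr9:123366927-123462675), was set by a single library in total mRNA. It measured 681 ppm in total Torin1 replicate 2 and between 16.6 and 47.2 ppm in the other 11 libraries. The same library held 33936 ppm of CT010467.1 against 1983 to 3973 ppm elsewhere, 7201 ppm of AY036118 against 322 to 729 ppm, 2061 ppm of the small nuclear RNA gene Rn7sk against 0 to 181 ppm and 2295 ppm of Rmrp, the RNA of a ribonuclease, against 0 to 114 ppm. Their part in the Lars2 value was not tested. The fold of Lars2 was 1.47 ± 1.02 with that library (limma, adjusted p = 0.463) and -0.21 without it (limma, adjusted p = 0.795). Without it Lars2 was also higher in polysome than in total mRNA of Torin1 cells, by 1.04 (limma, adjusted p = 0.0235), where the difference with it was -0.65 ± 1.02.

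**Figure D4:**
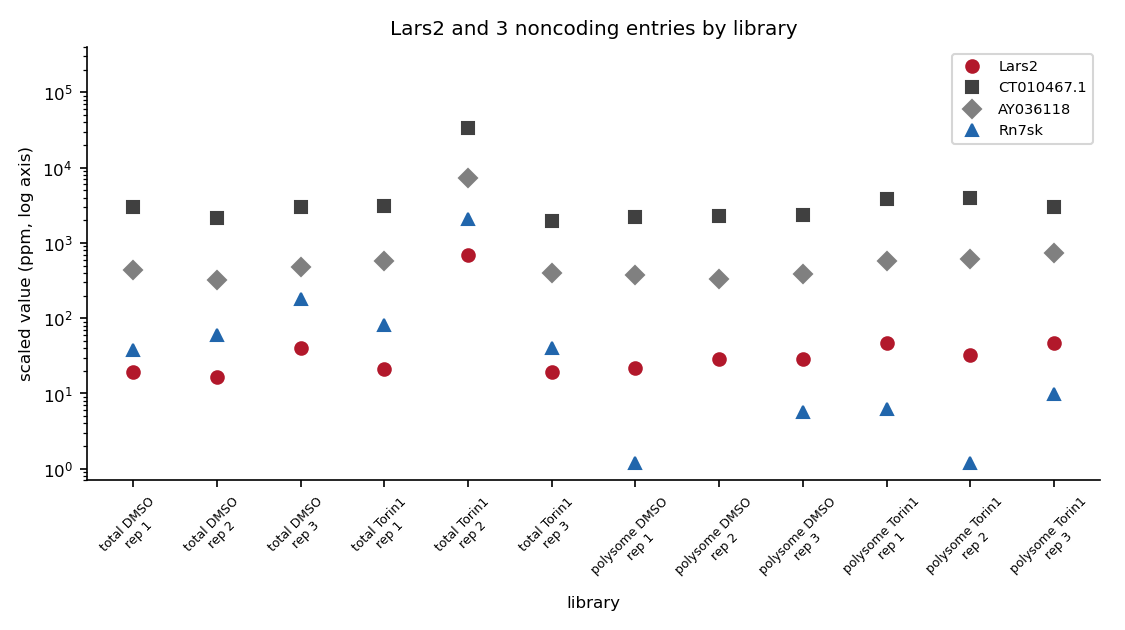
Scaled values in ppm (y axis, log scale) of Lars2 and of CT010467.1, AY036118 and Rn7sk in each of the 12 libraries (x axis), where a value of 0 (Rn7sk in polysome DMSO replicate 2) is not drawn. All 4 are highest in total Torin1 replicate 2, Lars2 at 681 ppm against at most 47.2 ppm elsewhere.

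The summed share of the library taken by synthetase mRNA showed the same single library. Before scaling, the 21 cytosolic genes held 0.188% ± 0.00137 (SD, n = 3) of the column total in total DMSO, 0.184% ± 0.00845 in total Torin1, 0.161% ± 0.0116 in polysome DMSO and 0.195% ± 0.0140 in polysome Torin1. The polysome DMSO shares, 0.155%, 0.174% and 0.153%, were below the Torin1 shares of 0.202%, 0.204% and 0.179%, but this difference was not tested. After scaling the cytosolic shares were 0.192% in polysome DMSO and 0.194% in polysome Torin1. The 17 mitochondrial genes held 0.0258%, 0.0475%, 0.0231% and 0.0303% in the same order. In total Torin1 the share was 0.0936% in replicate 2 and 0.0243% and 0.0245% in the others. With Lars2 left out the total mRNA shares were 0.0230% ± 0.00109 in DMSO and 0.0222% ± 0.000196 in Torin1.

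The other genes of tRNA charging were described from 5 lists of 17 genes in all. In total mRNA 0 rose and 1 fell, beside 3.32% and 4.16% of all genes tested. In polysome mRNA 0 rose and 3 fell, beside 4.4% and 6.27%. The number that fell there was 1 without each of polysome DMSO replicates 1 and 3 and Torin1 replicate 2, and 5 without Torin1 replicate 3. The gene that fell in both was Aimp2, a scaffold protein of the multisynthetase complex, from 52.4 ± 1.94 to 40.8 ± 1.61 ppm (SD, n = 3) in total mRNA, a fold of -0.36 ± 0.07 (limma, adjusted p = 0.0076). In polysome mRNA it fell by 0.23 ± 0.07 (limma, adjusted p = 0.0487), a call lost without each polysome library except Torin1 replicate 1 (highest adjusted p = 0.176). Gatc, a subunit of the amidotransferase that makes mitochondrial glutaminyl-tRNA, fell by 0.36 ± 0.07 in polysome mRNA (limma, adjusted p = 0.00546). Pstk, the kinase of selenocysteine synthesis on its tRNA, fell by 0.38 ± 0.10 (limma, adjusted p = 0.0311), a call lost without DMSO replicates 1 and 3 and without Torin1 replicate 2 (highest adjusted p = 0.108). The polysome direction of these lists depends on the scaling, since with the column total alone 2 of the 17 rose and 0 fell. Over all genes tested 2911 rose and 329 fell under that scaling. In DMSO cells 13 of the 17 were higher in polysome than in total mRNA, all 3 scaffold genes (Aimp1, Aimp2 and Eef1e1) among them, beside 21.8% of all genes tested and 40.9% of those with at least 8 ppm.

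Of 18 other genes of the ATF4 route 0 rose and 7 fell in total mRNA, where 3.32% and 4.16% of all genes tested did (4.43% and 7.48% with at least 8 ppm). Atf4 itself went from 281 ± 4.90 to 215 ± 1.34 ppm (SD, n = 3), a fold of -0.39 ± 0.06 (limma, adjusted p = 0.00276). Mthfd2, an enzyme of mitochondrial one-carbon metabolism, fell by 0.69 ± 0.07 and Sesn2, a leucine-binding regulator of mTOR, by 1.20 ± 0.13. Without total Torin1 replicate 2, and without either of 2 other total libraries (DMSO replicate 3 and Torin1 replicate 3), 4 of the 18 fell, as also with the column total alone. Asns, the asparagine synthetase, did not pass, at -0.02 ± 0.08. In polysome mRNA 3 rose and 6 fell, against 4.4% and 6.27% of all genes tested. This balance depends on the scaling, since with the column total alone 4 rose and 3 fell, while over all genes tested 2911 rose and 329 fell. With the compared groups fitted alone 0 rose and 3 fell, and 1 rose without each of polysome DMSO replicates 1 and 3 and Torin1 replicate 1. The 5 synthetase genes with the element had total mRNA folds of 0.19 ± 0.08 for Iars, -0.19 ± 0.08 for Aars, -0.07 ± 0.06 for Gars, -0.05 ± 0.08 for Tars and -0.23 ± 0.06 for Yars. Of these Yars alone passed. In polysome mRNA their folds were 0.18, -0.09, -0.10, -0.16 and -0.19, and none passed.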

How the data were processed

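The deposited table holds a signal per gene and library, on a scale set by the authors. By library, 56.4% to 99.18% of the nonzero values lay at whole numbers of equal steps tied to the column's sum. The values were therefore not treated as read counts. How the authors scaled them, and whether per length, is not stated, so levels are compared within a gene only. HTSeq 0.6.0, STAR 2.7.9a and the build mm10 are listed, without role or order, per the submitters' processing notes. Values were scaled by an own trimmed mean of log ratios (0.3 of the ratios and 0.05 of the abundances trimmed at each end). The mean factor of total libraries was 1.11 in DMSO and 1.08 in Torin1, and that of polysome libraries 0.835 and 1.00. Genes listed at 1 or more in 3 libraries were tested with limma 3.58.1 (R 4.3.3) on log2(value + 1), with 4 group means over all 12 libraries and a trend of variance with abundance. Benjamini-Hochberg adjustment was applied in each of 5 comparisons, with a threshold of 0.05. The pseudocount makes folds of low genes too small.

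Members and lists were chosen with earlier results of these data known. Members that passed in any comparison with a mean of at least 8 ppm numbered 28, and the 12 with the largest Torin1 or interaction fold are given by library, with the gene of the cytosolic and of the mitochondrial set among the 28 nearest to no change. Mars2, Yars and Lars2 were added after their values were seen. Spans are RefSeq's for GRCm38, the assembly of mm10. Strand-specific counting is not stated, so values of overlapping genes (Mars with Ddit3, Hars with Hars2, Rars2 with Orc3, Iars2 with Rab3gap2, Aars with Ddx19b, Farsb with Sgpp2, Wars with Wdr25) are uncertain. The same holds for Lars with Rps19-ps4, Tarsl2 with Gm33234 and Gm51484, and Lars2 with Gm46137. It also holds for Cars with Gm15580 and Fars2 with Gm40912, and some other members overlap further Gm or Mir entries. The code, tested on simulated data (20240 genes), found 59, 57 and 25 of 100 changes of 1.5-fold in total, polysome and interaction, and 93, 93 and 65 of 100 changes of 2-fold. It made 14, 10 and 6 false calls in the same order. Alternatives were other scalings and filters, a smaller pseudocount (0.1), only the compared groups, replicate blocks and leaving out each library. Counts cover all 38 genes, but 1 of them and 1 promoter sequence are not reported here.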

Additional observations from a re-analysis of the deposited data

How the results depend on the processing

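The counts of synthetase genes called depended most on the scaling and on pooling the spread over all 12 libraries. With the column total alone 0 genes rose and 0 fell in total mRNA, 17 rose in polysome mRNA, and 1 was higher and 16 were lower in polysome than in total mRNA of DMSO cells. Under that scaling Kars (-0.13), Rars (-0.045), Gars (-0.22), Nars (-0.24) and Wars (-0.19) changed sign there. With upper-quartile scaling 0 fell in total mRNA, and with every gene that had a nonzero value tested 0 rose and 1 fell. With the compared groups fitted alone 3 rose and 4 fell in total mRNA and 1 rose in polysome mRNA. Median-of-ratios scaling, a filter on all libraries and the pseudocount of 0.1 left every count of calls within 1.5 times. With each library left out in turn, 0 to 1 rose and 0 to 1 fell in total mRNA, 2 to 6 rose and 0 to 1 fell in polysome mRNA, and 0 to 1 had a higher and 0 to 0 a lower interaction. In polysome against total mRNA 11 to 14 were higher and 6 to 8 lower in DMSO cells, and 13 to 17 higher and 4 to 5 lower in Torin1 cells. The summed cytosolic share then ran from 0.187% to 0.188% in total DMSO, 0.180% to 0.188% in total Torin1, 0.154% to 0.164% in polysome DMSO and 0.190% to 0.203% in polysome Torin1. The mitochondrial share ran from 0.0244% to 0.0267%, 0.0244% to 0.0590%, 0.0218% to 0.0239% and 0.0287% to 0.0320%. After scaling, the cytosolic share was 0.169% in total DMSO, 0.170% in total Torin1 and 0.192% in polysome DMSO, and the mitochondrial share was 0.0233% in total DMSO and 0.0276% in polysome DMSO. The cause of these changes was not tested. The depth in reads is unknown, so the limit that depth sets could not be given.

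The labels do not say whether a total and a polysome library of the same number came from 1 lysate, and the values did not show such a pairing. Deviations of same-numbered libraries from their group means correlated between -0.24 and 0.22 over 9350 genes. With the replicate block 0 genes rose and 1 fell in total mRNA, 5 rose and 0 fell in polysome mRNA, and 0 passed the interaction. In polysome against total mRNA the block gave 15 higher and 7 lower in DMSO cells and 14 higher and 4 lower in Torin1 cells. With treatment and number together as the replicate block these counts were 14 and 8 in DMSO and 14 and 5 in Torin1 cells, and 0 passed the interaction. That block lost the call on Nars in DMSO (limma, adjusted p = 0.0681) and on Tars2 in Torin1 cells (limma, adjusted p = 0.0713), and Aars passed as lower in Torin1 cells (limma, adjusted p = 0.0481). No group pair had every library correlating best with its own number.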

Other observations

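The enzymes fall into 2 structural classes of unrelated fold, class I and class II, with 19 genes each here (Eprs, which holds a domain of each class, is counted with class I). In polysome mRNA 5 class I genes rose after Torin1 (Eprs, Ears2, Vars, Qars and Lars) and 2 class II genes did (Tars2 and Tarsl2), where 4.4% of all genes tested and 6.3% of those with at least 8 ppm rose. In DMSO cells 5 class I genes were higher and 6 lower in polysome than in total mRNA, with a median difference of -0.03. Of class II genes 10 were higher and 2 lower, with a median of 0.28. Over all genes tested 21.8% were higher and 19.3% lower, or 40.9% and 25.6% with at least 8 ppm. Scaled by column total alone the typical gene moves by -0.36 in this comparison, and the difference between the classes was not tested.

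Genes of the enzymes for the same amino acid are set side by side here, with no test of the difference between them. For glutamate, Eprs and Ears2 both rose in polysome mRNA after Torin1, by 0.72 ± 0.10 and 0.72 ± 0.14. For leucine, Lars rose by 0.31 ± 0.09, and Lars2 had 0.66 ± 1.02, with polysome values of 21.6 to 28.9 ppm in DMSO and 32.9 to 47.2 ppm in Torin1 that did not overlap. The error of Lars2 is pooled over all groups and includes the 681 ppm of total Torin1 replicate 2. In polysome mRNA CT010467.1 (2210 to 2323 ppm in DMSO, 3011 to 3973 ppm in Torin1) and AY036118 (335 to 388 and 573 to 729 ppm) also did not overlap. The groups of Rn7sk and Rmrp did. The part of these entries in the polysome values of Lars2 was not tested. For threonine, Tars had -0.16 ± 0.08 while Tarsl2 and Tars2 rose by 0.39 ± 0.10 and 0.42 ± 0.10. For methionine the polysome share in DMSO cells was -0.10 ± 0.08 for Mars and -1.48 ± 0.14 for Mars2. For tyrosine, Yars and Yars2 had total mRNA folds of -0.23 ± 0.06 and -0.38 ± 0.11 after Torin1, of which the first passed. These pairs were chosen after their values were seen.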
